A study of Mus musculus with 15 samples.

Results

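Collagen genes were taken as every gene whose name on the array starts with Col, a number, the letter a and a number. The rule found 45 gene names, measured by 67 probes, among 22594 genes with a symbol. One of them, Col4a3bp, encodes a ceramide transfer protein and no collagen, and the other 44 encode collagen chains, with 66 probes in all and more than 1 probe for 16 chains. They comprised 11 fibrillar chains, 8 chains of basement membrane collagens and 25 chains of other types. The genes were measured on 15 one-colour arrays of liver tumors, namely 5 hepatocellular carcinomas (HCC) each from p53f/f and p53LKO animals and 5 intrahepatic cholangiocarcinomas (ICC) from p53LKO animals. p53LKO mice lack Trp53, the gene of the tumor suppressor p53, in the liver, and p53f/f mice carry the floxed gene without its deletion.

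All mice, controls included, had received carbon tetrachloride (CCl4, a liver toxin that causes fibrosis) by intraperitoneal injection, 0.5 µl per g body weight in olive oil, for 16 weeks. The series' study gives the animals of the transcriptome analysis as male, and their age at tumor collection is not given in the labels. The study reports later tumor formation in p53f/f than in p53LKO mice. Age and time since CCl4 may thus differ between the genotypes and cannot be told apart from genotype here. Mouse 3717 gave the tumors T1 and T2, which leaves 4 animals behind the 5 p53f/f HCC. Mice 3731, 3733, 3976 and 5283 each gave an HCC and an ICC. RNA came from whole tumor tissue, and no untreated liver or tumor-free tissue was analysed here. In such bulk RNA, fewer cells of a type and less RNA per cell cannot be told apart. The p-values measure the spread between these tumors.

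Collagens are the main structural proteins of the extracellular matrix. Every chain carries long stretches in which glycine recurs after each pair of other residues, and chains with this repeat wind around each other into a helix. Fibrillar types I, III and V build the fibers of scar tissue, type IV forms the sheet-like network of basement membranes, and types XV and XVIII sit at those membranes. In the injured liver, activated stellate cells and portal fibroblasts are the chief source of fibrillar collagen, and septa of it mark fibrosis and cirrhosis. Cholangiocarcinoma is known for a dense fibrous stroma, and HCC usually has less.

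The repeat can be read in the array's own probes. Of the 66 probes of collagen chains, 2 held glycine codons at the first position of each group of 3 codons along their whole length of 60 bases, as did 5 of 55615 other probes. They are shown because they carry the sequence that defines the family. The probe of Col15a1 lies at chr4:47283786-47283845 and that of Col25a1 at chr3:130270497-130270556 in mm9, the build of the array files. The capitals mark the 6 glycine codons of each.
Col15a1: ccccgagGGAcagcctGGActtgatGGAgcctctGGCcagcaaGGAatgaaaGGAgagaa
Col25a1: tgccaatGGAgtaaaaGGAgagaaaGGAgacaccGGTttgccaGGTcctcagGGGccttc

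A level is the log2 of the background-corrected signal after division by the 75th percentile of that array. A level of 0 is that percentile, and levels are compared between tumors of 1 probe, never between genes. Where a chain had several probes, the brightest stands for it. The values of each gene follow the order 3681 T1, 3715 T2, 3716 T1, 3717 T1 and 3717 T2 for p53f/f HCC, 3976 T1, 5283 T7, 3731 T2, 3733 T1 and 3975 T4 for p53LKO HCC, and 3731 T3, 3733 T3, 3976 T8, 3977 T5 and 5283 T20 for ICC. A test required a probe to stand well above background in no fewer than 3 tumors of either group. It was called higher or lower at an adjusted p under 0.05 from limma with a fold change over 2.

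The arrays differed in how many probes stood well above background. The share was 55.1 to 70.1% on the arrays of p53f/f HCC and 42.5 to 47.0% on those of ICC. Each slide has an upper and a lower row, with every p53f/f HCC in an upper and every ICC in a lower row. The p53LKO HCC 3976 and 5283 lay in lower rows, with 46.4 and 37.0%, and the other 3 in upper rows, with 61.0 to 62.1%. Row and tumor group therefore cannot be told apart between ICC and p53f/f HCC, and within-row values are given for the other comparisons. Probes not above background also read differently in the rows, with medians of -5.19 to -4.17 in lower and -7.12 to -5.68 in upper rows. The Trp53 probe, placed by the files on another chromosome than the gene, read -1.27 to -0.68 in p53f/f HCC, -3.86 to -2.75 in p53LKO HCC and -4.19 to -2.31 in ICC.

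Of the 44 chains, 15 were well above background on all 15 arrays and 6 on none, namely Col13a1, Col24a1, Col28a1, Col6a4, Col6a6 and Col9a3. Another 4, Col11a1, Col22a1, Col26a1 and Col6a5, were above background on too few arrays for any test, so that 34 chains were tested at least once. Col22a1, a chain of tissue junctions, read 0.95 in the p53LKO HCC 3731 T2, where it was well above background, and was above background in no other tumor. Col6a5, a type VI chain, was above background in 2 tumors of each group, with its highest levels of -0.24 in ICC 3733 T3 and -0.92 in ICC 3731 T3.

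Among fibrillar chains, those of types I, III and V other than Col5a3 were called higher in ICC than in either HCC group. Against p53LKO HCC, 8 of 11 fibrillar chains were tested, of which 5 were called higher and none lower, and the median log2 fold change was 2.59. Over all collagen chains 15 of 29 tested were called higher and 1 lower, with a median of 1.80. Among all 16141 genes tested, 12.3% were called higher and 15.5% lower, and the median was -0.19. Of the 15 chains above background in all 10 tumors compared, 7 were called higher and none lower, with a median of 0.96. Of the 11391 genes above background in all 10 tumors, 923 were called higher and 1898 lower, with a median of -0.27. The filter bears on these counts, since Col8a1, Col8a2 and Col10a1 were tested only through their levels in ICC and 4 chains only through their levels in HCC.

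Col1a1, a chain of type I collagen, the main protein of scar tissue, read 1.28, 3.19, 3.61, 1.18 and 3.15 in the p53f/f HCC, 3.83, 3.08, 5.53, 3.17 and 3.63 in p53LKO HCC and 6.14, 6.45, 6.92, 5.97 and 6.93 in ICC. Every ICC stood above every HCC, while the HCC groups overlapped and the p53LKO HCC 3731 T2 was the highest of the HCC. Group means were 2.48 ± 1.16, 3.85 ± 0.99 and 6.48 ± 0.44 (SD, n = 5 each). ICC exceeded p53LKO HCC 6.21-fold, a log2 fold change of 2.63 (SE 0.43, adjusted p = 0.000921 from limma, exact permutation test, 2-sided, p = 0.00794, the smallest it can give). Col1a2, the partner chain of type I, read 2.36, 4.21, 4.81, 2.84 and 4.38 in the p53f/f HCC, 4.68, 3.98, 6.25, 4.11 and 4.79 in p53LKO HCC and 7.0, 7.56, 8.04, 7.16 and 7.76 in ICC. It had the same separation of ICC from all HCC and was 6.70-fold higher than in p53LKO HCC (log2 2.74, SE 0.40, adjusted p = 0.000492 from limma).

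Col3a1, the type III chain that is laid down with type I in young scars, read 1.59, 3.21, 3.83, 1.79 and 3.76 in the p53f/f HCC, 3.75, 3.33, 5.03, 3.23 and 2.98 in p53LKO HCC and 6.34, 6.61, 6.88, 6.04 and 6.37 in ICC. Again no HCC reached the lowest ICC. The difference from p53LKO HCC was 6.88-fold (log2 2.78, SE 0.35, adjusted p = 0.000241 from limma). The promoter windows of Col1a2 and Col3a1 are shown as those of 2 genes of the scar collagens that rose together in ICC but differ in composition. They hold the 250 bases before the start of the RefSeq transcript in GRCm38.p6, on the plus strand, at chr6:4505368-4505617 for Col1a2 and chr1:45311288-45311537 for Col3a1. GC content is 62.0% in the Col1a2 window and 35.2% in that of Col3a1. The letters CCAAT, in capitals, occur once on either strand in the window of Col1a2 and not in that of Col3a1.
Col1a2: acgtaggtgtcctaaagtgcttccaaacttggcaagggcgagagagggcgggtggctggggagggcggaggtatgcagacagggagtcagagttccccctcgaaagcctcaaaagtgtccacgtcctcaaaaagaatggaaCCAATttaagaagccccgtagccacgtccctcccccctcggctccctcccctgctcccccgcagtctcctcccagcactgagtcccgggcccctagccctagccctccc
Col3a1: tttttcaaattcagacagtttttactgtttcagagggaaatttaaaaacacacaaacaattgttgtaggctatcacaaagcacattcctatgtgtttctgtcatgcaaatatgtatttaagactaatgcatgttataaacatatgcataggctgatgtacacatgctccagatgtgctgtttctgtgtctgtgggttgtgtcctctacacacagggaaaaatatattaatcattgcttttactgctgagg

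Windows were at hand for 35 of the 44 chains, 38 windows in all, and both strands were searched for fixed letters. CCAAT was in 13 of the 38 windows and in 33.8% of all 32851 windows of the table. GGGCGG, the GC box bound by Sp1, was in 22 of the 38 and in 32.7% of all windows, with 2 copies for Col1a2 and 0 for Col3a1. TATAAA was in 5 of the 38 and in 12.4% of all windows, with 0 copies for Col1a2 and 1 for Col3a1. Matches of different motifs may share end letters where they adjoin, and a match describes the sequence only.

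Type V collagen starts and limits the growth of type I fibers. Its chain Col5a1 read -2.04, -0.39, 0.10, -1.34 and -0.57 in the p53f/f HCC, -0.10, -0.34, 1.38, -0.46 and -0.33 in p53LKO HCC and 2.06, 2.31, 3.11, 2.04 and 3.35 in ICC. All ICC were above all HCC, and the p53LKO HCC 3731 T2 stood apart from the other 4 of its group. ICC was 5.84-fold above p53LKO HCC (log2 2.54, SE 0.39, adjusted p = 0.000676 from limma). Col5a2, whose gene lies next to Col3a1 on chromosome 1, read -3.41, -3.40, -3.0, -3.96 and -1.42 in the p53f/f HCC, -3.54, -3.59, -1.38, -3.91 and -3.30 in p53LKO HCC and 0.52, 0.73, 1.17, 0.14 and 0.45 in ICC. In p53LKO HCC only 3 of the 5 tumors were well above background for it. With a 13.4-fold difference it had the largest log2 fold change of the fibrillar chains tested between ICC and p53LKO HCC (3.75, SE 0.43, adjusted p = 0.00014 from limma).

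**Figure D1:**
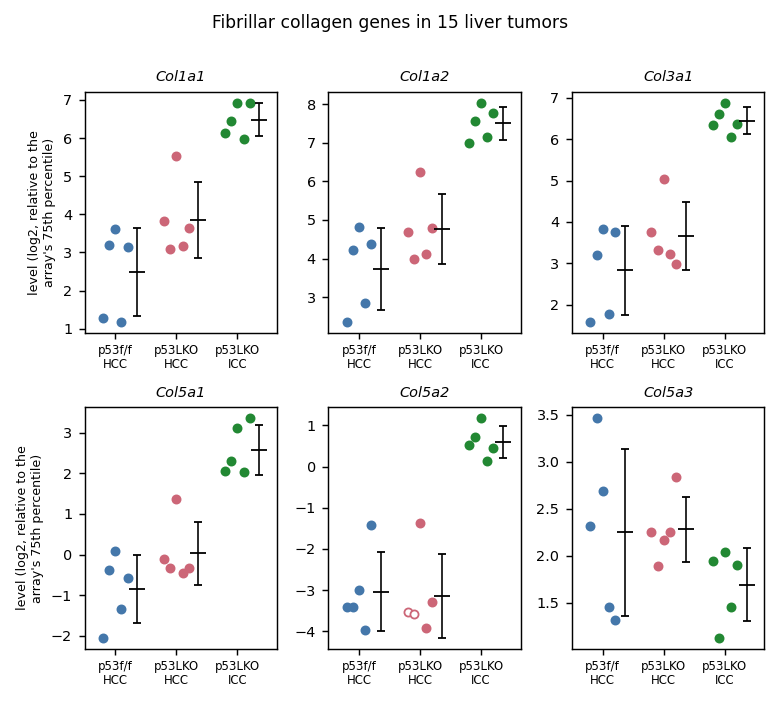
Levels of 6 fibrillar chains (vertical axis, level in log2 units against the 75th percentile of each array, a separate scale for each gene) in p53f/f HCC, p53LKO HCC and p53LKO ICC, 1 point per tumor, with the mean and SD of the 5 tumors beside them. Open points are not well above background. In Col1a1, Col1a2, Col3a1, Col5a1 and Col5a2 all ICC lie above all HCC, and in Col5a3 the groups overlap.

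The remaining fibrillar chains tested were not called in ICC against either HCC group. Col5a3, the third type V chain, read 2.32, 3.46, 2.69, 1.46 and 1.32 in the p53f/f HCC, 2.25, 1.89, 2.17, 2.25 and 2.84 in p53LKO HCC and 1.94, 1.13, 2.04, 1.46 and 1.90 in ICC. The 3 groups overlapped, and the log2 difference of ICC from p53LKO HCC was -0.58 (SE 0.23, adjusted p = 0.0611 from limma). Col27a1, a chain of cartilage, differed by 0.89 (SE 0.28, adjusted p = 0.0235), under the fold limit. It was called higher in the lower row alone, with the row as a block and in the 4 pairs of tumors from 1 mouse. Col11a2 was above background in no ICC and 3 p53LKO HCC, and no fold is given. Col2a1, the chain of cartilage type II, was tested only against p53f/f HCC in the comparisons of ICC, with a log2 difference of -0.23 (adjusted p = 0.753).

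Against p53f/f HCC the same 5 fibrillar chains were called higher in ICC and none lower, of 9 tested. The median log2 fold change of the 9 was 3.42. The background for this comparison is 11.2% of 16796 genes called higher and 11.9% lower, with a median of -0.16. Over all classes 34 chains were tested here, 3 of them only through ICC and 9 only through p53f/f HCC. Col1a1 was 16.0-fold higher (log2 4.0, SE 0.49, adjusted p = 0.000295 from limma), Col1a2 13.8-fold, Col3a1 12.2-fold and Col5a2 12.5-fold, and Col5a1 differed by 3.42 on the log2 scale. The comparison shares its ICC with the one above, so its values stand beside the others and are no separate evidence. Within the lower row, where 5 ICC can be set against 2 p53LKO HCC, the differences of these chains were log2 3.03 for Col1a1, 3.18 for Col1a2, 2.91 for Col3a1, 2.80 for Col5a1 and 4.17 for Col5a2, with adjusted p of 0.000602 to 0.00625 from limma. The lower row alone gave 16 collagen chains called higher and 2 lower of 29 tested, beside 1462 higher and 1973 lower of 16141 genes.

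Fibrillar chains mostly did not pass the test between the HCC groups. Of 9 tested none was called higher and 1 lower in p53LKO HCC, and the median log2 fold change was 0.03. Over all chains tested, 4 of 31 were called higher and 2 lower, against 5.41% and 8.95% of 16850 genes, and the medians were -0.02 for the chains and 0.10 for all genes. Here 5 of the 31 chains were tested only through p53f/f HCC. The log2 differences were 1.37 for Col1a1 (SE 0.59, adjusted p = 0.0996), 1.04 for Col1a2 (adjusted p = 0.163), 0.83 for Col3a1 (adjusted p = 0.25) and 0.88 for Col5a1 (adjusted p = 0.158), all from limma. Col5a2 differed by -0.10 and Col5a3 by 0.03.

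Col2a1 was the fibrillar chain called lower. It read -3.93, -2.77, -4.52, -2.85 and -3.94 in p53f/f HCC. Its levels were -5.21, -4.17, -7.18, -4.23 and -7.0 in p53LKO HCC, where it was well above background in 1 tumor. The groups overlapped, and the log2 difference of the measured means was -1.96 (SE 0.64, adjusted p = 0.0375 from limma). It was tested only through p53f/f HCC, and on the 4 p53LKO arrays without signal above background its levels lay near the median of all such probes, which was -5.19, -4.17, -7.12 and -6.91. In ICC it read -3.90, -3.38, -4.67, -2.25 and -4.95. Within the upper row the difference was -2.53 (adjusted p = 0.026). The call was lost in 15 of 25 alternatives, among them the slide as a block (adjusted p = 0.109) and those without p53f/f HCC 3681, 3715 or either tumor of 3717 and those without p53LKO HCC 3976, 3731 or 3975. Averaging the 2 tumors of mouse 3717, which makes the animal the unit, lost it as well.

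Scale matters for statements on the HCC groups. Scaling the arrays to their spiked-in control RNA moved the median log2 fold change of all genes between p53LKO and p53f/f HCC from 0.10 to 0.83. Of 31 collagen chains 12 were then called higher and none lower, beside 6133 higher and 583 lower of 16850 genes. Among all called genes the share of higher ones was 37.7% with the 75th percentile and 91.3% with the spiked-in RNA. With spike-in scaling Col1a1 differed by 2.10 and Col3a1 by 1.56 on the log2 scale. The scaling changes all genes of an array by 1 amount, so these gains are fixed by it and equal the shift of all genes.

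Basement membrane collagens had no common direction. Against p53LKO HCC, 2 of 7 chains tested were called higher in ICC and none lower (median log2 fold change 0.96), and against p53f/f HCC 4 of 8 were higher and 1 lower (median 0.28). In p53LKO against p53f/f HCC 1 of 8 was higher and 1 lower (median -0.25). Of all genes, 12.3% were higher and 15.5% lower in the first of these comparisons, 11.2% and 11.9% in the next and 5.41% and 8.95% in the last. Type IV collagen has 6 chains, encoded as 3 neighbouring gene pairs, and the results are given pair by pair. Col4a1 and Col4a2 form the network found in every basement membrane, while Col4a3, Col4a4, Col4a5 and Col4a6 are restricted to certain tissues such as the kidney.

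Col4a1 read 1.71, 2.0, 2.71, 2.19 and 1.91 in the p53f/f HCC, 2.78, 3.29, 4.36, 2.67 and 3.01 in p53LKO HCC and 3.29, 3.14, 4.03, 3.00 and 3.85 in ICC. The p53LKO tumors of both kinds overlapped each other, and against p53f/f HCC they overlapped in 1 value of HCC and in none of ICC. In p53LKO HCC it was 2.17-fold above p53f/f HCC (log2 1.12, SE 0.32, adjusted p = 0.022 from limma), and within the upper row the difference was 1.24 (adjusted p = 0.0433). ICC was 2.56-fold above p53f/f HCC (log2 1.36, SE 0.26, adjusted p = 0.00321) and differed from p53LKO HCC by 0.24 (SE 0.33, adjusted p = 0.578). With the slide as a block the adjusted p between the HCC groups was 0.0536, and without p53LKO HCC 3731 T2 the difference was 0.83. The call was also lost without p53f/f HCC 3681 or 3717 T2.

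Its partner Col4a2 read 1.15, 1.44, 2.24, 2.03 and 1.69 in the p53f/f HCC, 2.14, 2.30, 4.11, 1.54 and 2.68 in p53LKO HCC and 3.06, 3.27, 4.10, 3.05 and 4.08 in ICC. The ICC stood above every p53f/f HCC, and among p53LKO HCC 3731 T2 lay just above the highest ICC. ICC was 3.49-fold above p53f/f HCC (log2 1.80, SE 0.29, adjusted p = 0.00142 from limma). The difference of ICC from p53LKO HCC was 0.96 (SE 0.44, adjusted p = 0.0958) and became 1.35 (adjusted p = 0.0082) without 3731 T2. For the HCC groups it was 0.84 (SE 0.42, adjusted p = 0.148).

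Col4a3 and Col4a4, which share a promoter region, were highest in p53f/f HCC. Col4a3 read 0.56, -5.91, -3.40, -0.17 and -1.26 in the p53f/f HCC, -1.57, -4.44, -5.74, -3.84 and -7.09 in p53LKO HCC and -4.67, -5.12, -5.21, -4.93 and -4.95 in ICC. The p53f/f HCC spread widely, from 3715 T2 below background to 3681 T1 at the top, and no ICC was above background. ICC was at least 1.61-fold below p53f/f HCC, with measured means of -4.98 and -2.04 (adjusted p = 0.0451 from limma), and 14 of 22 alternatives lost the call, among them those without any 1 of the ICC and without p53f/f HCC 3681 or either tumor of 3717. The HCC groups differed by -2.50 (SE 1.29, adjusted p = 0.157).

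Col4a4 read 0.35, -1.39, -1.59, 0.09 and -0.67 in the p53f/f HCC, -1.07, -4.32, -2.54, -2.34 and -2.39 in p53LKO HCC and -1.30, -1.14, -2.0, -1.07 and -2.07 in ICC. Only 3976 T1 among p53LKO HCC lay within the range of p53f/f HCC. p53LKO HCC was 3.71-fold lower (log2 -1.89, SE 0.57, adjusted p = 0.0258 from limma), and within the upper row the difference was -1.78 (adjusted p = 0.018), with the row as a block -1.78 (adjusted p = 0.0792). The call was lost in 10 of 25 alternatives, among them those without p53f/f HCC 3681 or either tumor of 3717. Averaging the 2 tumors of mouse 3717, which makes the animal the unit, also lost it. A second probe of Col4a4 gave -1.09 (adjusted p = 0.102). For ICC against p53LKO HCC the brightest probe gave 1.01 (adjusted p = 0.117), and the second, above background in 4 p53LKO HCC and no ICC, had the opposite direction (adjusted p = 0.00905) and is given no fold. Against p53f/f HCC ICC differed by -0.88 (adjusted p = 0.111) with the brightest probe and was at least 2.01-fold lower with the second (adjusted p = 0.000204).

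Col4a5 and Col4a6 lie close together on chromosome X and are read in opposite directions. Col4a5 read 0.78, -2.43, -1.68, -1.06 and -0.39 in the p53f/f HCC, -2.80, -3.82, -1.35, -4.84 and -1.93 in p53LKO HCC and 1.83, 2.01, 1.77, 1.06 and 2.13 in ICC. All ICC were above all HCC. ICC was 26.2-fold above p53LKO HCC (log2 4.71, SE 0.57, adjusted p = 0.000195 from limma) and 6.57-fold above p53f/f HCC (log2 2.72, SE 0.51, adjusted p = 0.00303). Within the lower row the difference from p53LKO HCC was 5.07 (adjusted p = 0.00064). p53LKO and p53f/f HCC differed by -1.99 (SE 0.72, adjusted p = 0.0553), with 2 of 5 p53LKO HCC below background.

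The 2 probes of Col4a6 disagreed. The brighter probe, at chrX:137601433-137601491 in mm9, read 0.32, -0.79, -0.26, -0.11 and -0.24 in the p53f/f HCC, -1.08, -0.79, -0.65, -0.51 and -0.46 in p53LKO HCC and -1.23, -1.01, -1.03, -0.92 and -0.84 in ICC. The p53LKO HCC overlapped the other groups, and ICC differed from p53LKO HCC by -0.31 (SE 0.16, adjusted p = 0.15 from limma) and from p53f/f HCC by -0.79 (SE 0.21, adjusted p = 0.0138), under the fold limit. The second probe, at chrX:137599990-137600049, read -5.14, -3.29, -4.79, -4.79 and -1.93 in the p53f/f HCC, -4.25, -3.99, -3.20, -4.27 and -2.87 in p53LKO HCC and 1.30, 2.49, 2.52, 1.64 and 3.0 in ICC. It was above background in all ICC, 3 p53LKO HCC and 2 p53f/f HCC, so that the test against p53f/f HCC rested on ICC passing the filter. It set all ICC above all HCC, and the measured means differed by log2 5.90 from p53LKO HCC (SE 0.38, adjusted p = 6.7e-06) and 6.18 from p53f/f HCC (SE 0.60, adjusted p = 7.54e-05). The count of basement membrane chains uses the brighter probe and so does not hold Col4a6 as called.

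The windows before the RefSeq starts of this pair are shown because both chains, Col4a6 by its second probe, were high in ICC. Col4a5 starts on the plus strand, with its window at chrX:141475169-141475418, and Col4a6 on the minus strand, with its window at chrX:141474077-141474326, both in GRCm38.p6. GC content is 54.0% for Col4a5 and 47.6% for Col4a6. CCAAT, in capitals, occurs once for Col4a5 and not for Col4a6, and each window holds GGGCGG once and TATAAA not at all.
Col4a5: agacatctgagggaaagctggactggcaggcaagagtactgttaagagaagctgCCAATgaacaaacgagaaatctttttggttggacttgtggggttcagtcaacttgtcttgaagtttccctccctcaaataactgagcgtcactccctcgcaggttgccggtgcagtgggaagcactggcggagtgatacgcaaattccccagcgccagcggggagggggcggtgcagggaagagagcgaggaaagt
Col4a6: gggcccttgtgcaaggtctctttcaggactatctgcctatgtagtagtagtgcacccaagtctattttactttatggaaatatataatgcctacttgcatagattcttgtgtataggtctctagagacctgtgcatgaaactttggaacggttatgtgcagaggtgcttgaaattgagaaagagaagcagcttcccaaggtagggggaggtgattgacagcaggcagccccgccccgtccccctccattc

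**Figure D2:**
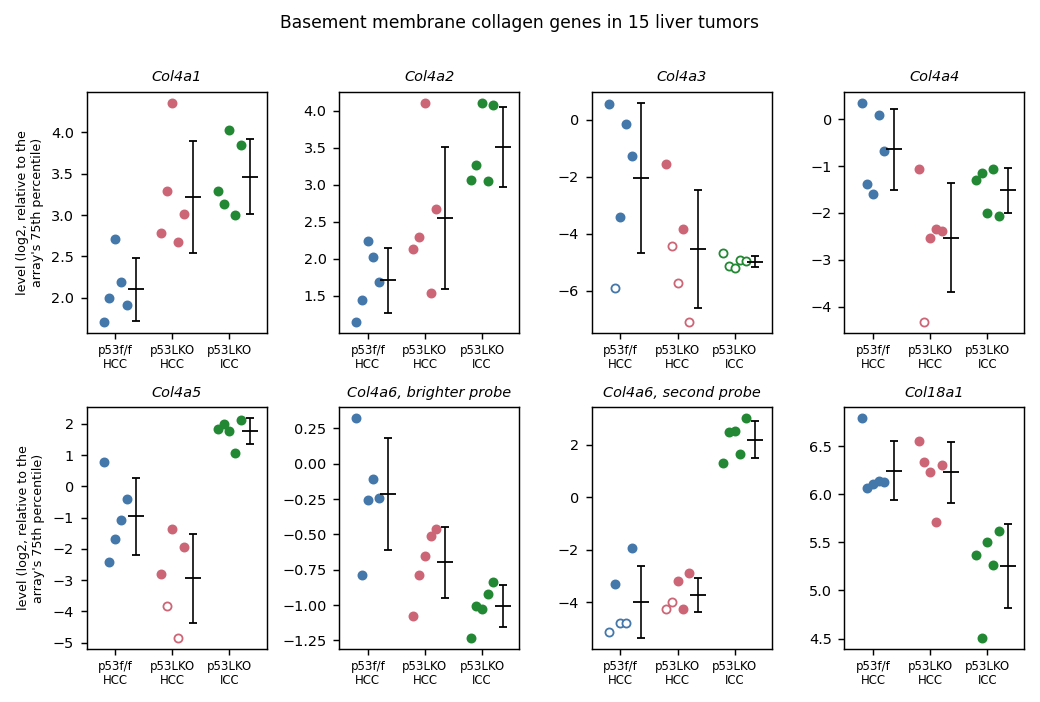
Levels of basement membrane chains (vertical axis, level in log2 units against the 75th percentile of each array, a separate scale for each panel) in the 3 tumor groups, 1 point per tumor, with the mean and SD of the 5 tumors beside them and both probes of Col4a6. Open points are not well above background. Col4a5 and the second probe of Col4a6 set all ICC above all HCC, Col4a1 is lowest in p53f/f HCC, and Col18a1 is lowest in ICC.

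Types XV and XVIII carry heparan or chondroitin sulfate chains, and their differences ran in opposite directions. Col15a1 read -3.60, -2.73, -2.22, -4.06 and -3.59 in the p53f/f HCC, -2.68, -4.34, -1.95, -2.30 and -2.44 in p53LKO HCC and -1.12, -0.01, 0.65, -0.56 and -0.46 in ICC. All ICC were above all HCC, and ICC was 5.44-fold above p53LKO HCC (log2 2.44, SE 0.45, adjusted p = 0.00183 from limma) and 7.68-fold above p53f/f HCC (log2 2.94, SE 0.40, adjusted p = 0.000538). Against p53LKO HCC all 3 probes of Col15a1 were called higher in ICC. Against p53f/f HCC the dimmer pair was above background in 4 ICC and 1 HCC and so tested only through ICC. Between the HCC groups the brightest, which carries the glycine codons shown above, gave 0.50 (adjusted p = 0.442). The others were above background in 3 p53LKO and 1 p53f/f HCC, so that they were tested only through p53LKO HCC, where they were called higher.

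Col18a1, the type XVIII chain from which endostatin is cut and which hepatocytes make, ran the other way. It read 6.79, 6.07, 6.11, 6.14 and 6.13 in the p53f/f HCC, 6.55, 6.34, 6.23, 5.71 and 6.31 in p53LKO HCC and 5.37, 4.51, 5.50, 5.26 and 5.62 in ICC. Every ICC lay below every HCC. The fold was 1.97 against p53LKO HCC (log2 -0.98, SE 0.24, adjusted p = 0.00775 from limma) and 2.0 against p53f/f HCC (log2 -1.0, SE 0.24, adjusted p = 0.00977), both just short of the fold limit. In the lower row alone the difference from p53LKO HCC was -1.20 (adjusted p = 0.0374), past both limits. With spike-in scaling it was -0.96 (adjusted p = 0.0523), and that from p53f/f HCC was -0.25 (adjusted p = 0.64). A second probe gave -0.39 (adjusted p = 0.119) and -0.80 (adjusted p = 0.00892), and the HCC groups differed by -0.02 (adjusted p = 0.948).

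Among the other types, 8 of 14 tested chains were called higher in ICC than in p53LKO HCC and 1 lower (median log2 fold change 1.85), beside 12.3% and 15.5% of all genes. Against p53f/f HCC 9 of 17 were higher and 1 lower (median 2.16), beside 11.2% and 11.9% of all genes. In p53LKO HCC 3 of 14 were called higher than in p53f/f HCC and none lower (median 0.13), beside 5.41% and 8.95% of all genes. Those 3 were the type VI chains Col6a1 and Col6a2 and the type XVI chain Col16a1.

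Type VI collagen forms beaded filaments around cells. Col6a1 read -0.46, 0.98, 1.43, 0.74 and 0.57 in the p53f/f HCC, 2.24, 1.64, 3.87, 1.43 and 2.01 in p53LKO HCC and 3.57, 4.37, 5.0, 2.96 and 4.76 in ICC. The groups followed each other upward, with the p53LKO HCC 3731 T2 inside the ICC range and the lowest p53LKO HCC level with the highest p53f/f HCC. The step between the HCC groups was 3.0-fold (log2 1.58, SE 0.47, adjusted p = 0.0252 from limma) and that from p53LKO HCC to ICC 3.72-fold (log2 1.90, SE 0.51, adjusted p = 0.0118). The first was lost without p53f/f HCC 3681 or 3717 T2 and with the slide as a block (adjusted p = 0.0644). Within the upper row it was 1.78 (adjusted p = 0.0484), and within the lower row the second was 2.19 (adjusted p = 0.0306).

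Col6a2, a near neighbour of Col6a1 on chromosome 10, read -2.63, -1.74, -1.41, -1.82 and -1.79 in the p53f/f HCC, -0.46, -1.18, 1.44, -1.29 and -0.77 in p53LKO HCC and 0.66, 1.61, 2.44, 0.13 and 1.91 in ICC. Here no p53LKO HCC fell into the range of p53f/f HCC. The differences were 1.43 between the HCC groups (SE 0.47, adjusted p = 0.0391 from limma) and 1.80 between ICC and p53LKO HCC (SE 0.57, adjusted p = 0.0245). Both were close to the limit, with adjusted p of 0.0563 in the upper row and 0.0426 in the lower row. With the slide as a block the first had 0.101, and with the row as a block the second had 0.0616, as adjusted p from limma. Without 3731 T2 the first difference was 0.96. The first was also lost without any 1 p53f/f HCC other than 3716 and without p53LKO HCC 3976 or 3975, and the second without p53LKO HCC 5283, 3733 or 3975 or ICC 3733 or 3976. With the 4 mice that gave both tumors as a paired block the second had an adjusted p of 0.0741. Col6a3, the third chain, read -0.87, 1.33, 2.03, 0.03 and 2.14 in the p53f/f HCC, 2.18, 1.82, 3.20, 1.06 and 2.46 in p53LKO HCC and 3.66, 4.75, 5.0, 3.75 and 4.88 in ICC. All its ICC values exceeded all HCC values, with log2 2.26 over p53LKO HCC (SE 0.41, adjusted p = 0.00157), while the HCC groups overlapped (1.21, SE 0.60, adjusted p = 0.142).

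Col16a1, a chain that links fibrils to the cell surface, separated the genotypes and not the tumor types of p53LKO mice. It read -0.57, 1.47, 0.71, -0.25 and 1.06 in the p53f/f HCC, 2.96, 1.88, 2.76, 1.63 and 2.26 in p53LKO HCC and 2.21, 2.79, 3.35, 2.19 and 2.67 in ICC. All 10 tumors of p53LKO mice were above all 5 of p53f/f mice. Age and time since CCl4 may also differ between these mice and were not tested. p53LKO HCC was 3.52-fold higher than p53f/f HCC (log2 1.82, SE 0.41, adjusted p = 0.00711 from limma) and ICC 4.47-fold higher (log2 2.16, SE 0.40, adjusted p = 0.00274). ICC differed from p53LKO HCC by 0.34 (SE 0.31, adjusted p = 0.383). A second probe gave 1.92 between the HCC groups (adjusted p = 0.00787), and the remaining, dim probe -0.29 (adjusted p = 0.606). Among the 6 collagen chains called between the HCC groups, Col16a1 was the one whose call held in all 26 alternatives, including the upper row alone (1.74, adjusted p = 0.0287).

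The network-forming chains of type VIII and type X were near or below background in HCC and measured in ICC. Col8a1 read -4.77, -3.51, -3.73, -6.29 and -1.99 in the p53f/f HCC, -5.33, -4.29, -1.65, -6.22 and -3.36 in p53LKO HCC and 0.39, 1.16, 1.71, -0.35 and 1.0 in ICC. Each HCC group had 2 tumors above background for it. Both Col8a1 and Col8a2 were tested only through their levels in ICC. The measured means of Col8a1 were 0.78 ± 0.79 in ICC and -4.17 ± 1.77 (SD, n = 5) in p53LKO HCC, with 3 of the 5 p53LKO HCC not above background. Col8a2 read -5.87, -4.72, -6.52, -6.42 and -4.37 in the p53f/f HCC, -4.27, -3.11, -2.79, -6.48 and -2.15 in p53LKO HCC and -0.97, 0.10, 0.73, -1.97 and -0.37 in ICC. The ICC lay above all HCC. The call against p53LKO HCC was lost with the row as a block (adjusted p = 0.0515). A second probe of Col8a2 ran the other way, being above background in no ICC, 3 p53LKO HCC and 4 p53f/f HCC. It was called lower in ICC than in p53f/f HCC (adjusted p = 0.0162), and no fold is given.

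Col10a1, the chain of growth plate cartilage, read -6.70, -5.61, -6.35, -6.24 and -6.97 in the p53f/f HCC, -5.16, -4.14, -7.19, -6.90 and -7.01 in p53LKO HCC and -3.06, -0.93, 0.21, -2.74 and -0.67 in ICC. None of the 10 HCC was above background, and 3 of the 5 ICC were. ICC was at least 7.28-fold above p53LKO HCC, with measured means of -1.44 and -6.08 (adjusted p = 0.000884 from limma), and at least 8.83-fold above p53f/f HCC, with a mean of -6.37 (adjusted p = 0.000249). As a check on cartilage, Comp was the one of 3 tested cartilage markers called higher in ICC, while Matn1 was above background in 1 of the 15 tumors. All genes called higher were 12.3% against p53LKO HCC and 11.2% against p53f/f HCC. Comp was also called higher in p53LKO than in p53f/f HCC, beside 5.41% of all genes. It was above background in 5 ICC, 3 p53LKO HCC and 0 p53f/f HCC, so against p53f/f HCC it was tested only through the other group. The part of cartilage genes in the result was not tested.

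**Figure D3:**
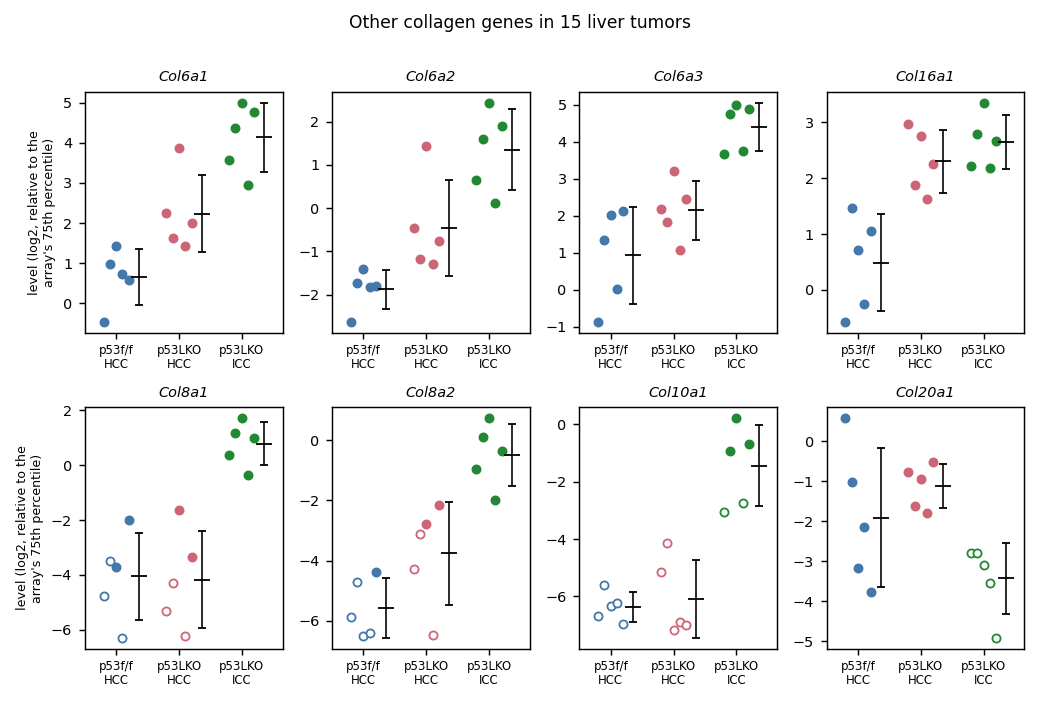
Levels of 8 chains of other collagen types (vertical axis, level in log2 units against the 75th percentile of each array, a separate scale for each gene) in the 3 tumor groups, 1 point per tumor, with the mean and SD of the 5 tumors beside them. Open points are not well above background. Col16a1 sets all 10 tumors of p53LKO mice above p53f/f HCC, Col8a1, Col8a2 and Col10a1 rise in ICC from levels near background, and Col20a1 is below background in all ICC.

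Col7a1, the chain of the anchoring fibrils beneath epithelia, read -2.83, -1.93, -1.96, -2.74 and -2.03 in the p53f/f HCC, -2.29, -3.53, -1.58, -2.47 and -2.01 in p53LKO HCC and -0.52, -0.25, 0.51, 0.16 and 0.50 in ICC. All ICC were above all HCC (log2 2.46 over p53LKO HCC, SE 0.35, adjusted p = 0.000432 from limma). Col12a1, which binds to type I fibrils, read -2.60, -2.26, -2.78, -2.83 and -1.72 in the p53f/f HCC, -0.97, -4.0, -0.68, -2.47 and -2.41 in p53LKO HCC and 0.52, -0.06, 0.35, -0.78 and -0.22 in ICC. Its p53LKO HCC spread over a wide range and touched the ICC, with a log2 fold change of 2.07 (SE 0.56, adjusted p = 0.0126), and the lower row alone gave an adjusted p of 0.0509. Col14a1, a relative of Col12a1, did not share the rise and read 1.77, 3.42, 3.04, 3.12 and 3.30 in the p53f/f HCC, 3.73, 3.17, 4.34, 2.89 and 3.30 in p53LKO HCC and 2.70, 2.27, 3.38, 2.98 and 2.72 in ICC. Its difference between ICC and p53LKO HCC was -0.68 (SE 0.29, adjusted p = 0.0815).

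Col20a1 was the chain called lower in ICC than in p53LKO HCC. It read 0.57, -1.03, -3.16, -2.14 and -3.78 in the p53f/f HCC, -0.76, -1.61, -0.94, -1.80 and -0.51 in p53LKO HCC and -2.80, -2.79, -3.10, -3.54 and -4.91 in ICC. No ICC was above background, every p53LKO HCC was, and the p53f/f HCC spread over both ranges. ICC was at least 3.01-fold below p53LKO HCC, with measured means of -3.43 and -1.13 (adjusted p = 0.00159 from limma), and a second probe was at least 2.26-fold lower (adjusted p = 0.000484). Against p53f/f HCC it was at least 1.75-fold lower, with measured means of -3.43 and -1.91, and did not pass the test (adjusted p = 0.142), while the second probe was called at least 1.65-fold lower (adjusted p = 0.0374). The remaining chain called lower, Col9a1 of type IX, read -2.58, -3.47, -2.90, -3.57 and -3.15 in p53f/f HCC and -4.55, -4.98, -5.12, -4.82 and -4.21 in ICC. Every ICC value was below background and below every p53f/f HCC value. It was tested only through p53f/f HCC, and no fold is given because the floor of the lower-row arrays is as high as the p53f/f levels.

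Chains of the other types that passed both limits in no comparison were Col9a2, Col14a1, Col17a1, Col19a1, Col23a1 and, by its brightest probe, Col25a1. The log2 differences of these 6 ranged from -0.97 for Col17a1 to 0.56 for Col14a1 between the HCC groups, and the 4 tested in ICC against p53LKO HCC ranged from -0.68 for Col14a1 to 0.81 for Col25a1. The brightest probe of Col25a1 is the one with glycine codons shown above. Another probe of it was above background in all 5 p53f/f HCC and no p53LKO HCC and was at least 2.02-fold lower in the latter (measured means -3.24 and -5.09, adjusted p = 0.00521 from limma). Col4a3bp, which is no collagen, differed by -0.21, 0.17 and -0.04 in the 3 comparisons and passed in none.

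**Figure D4:**
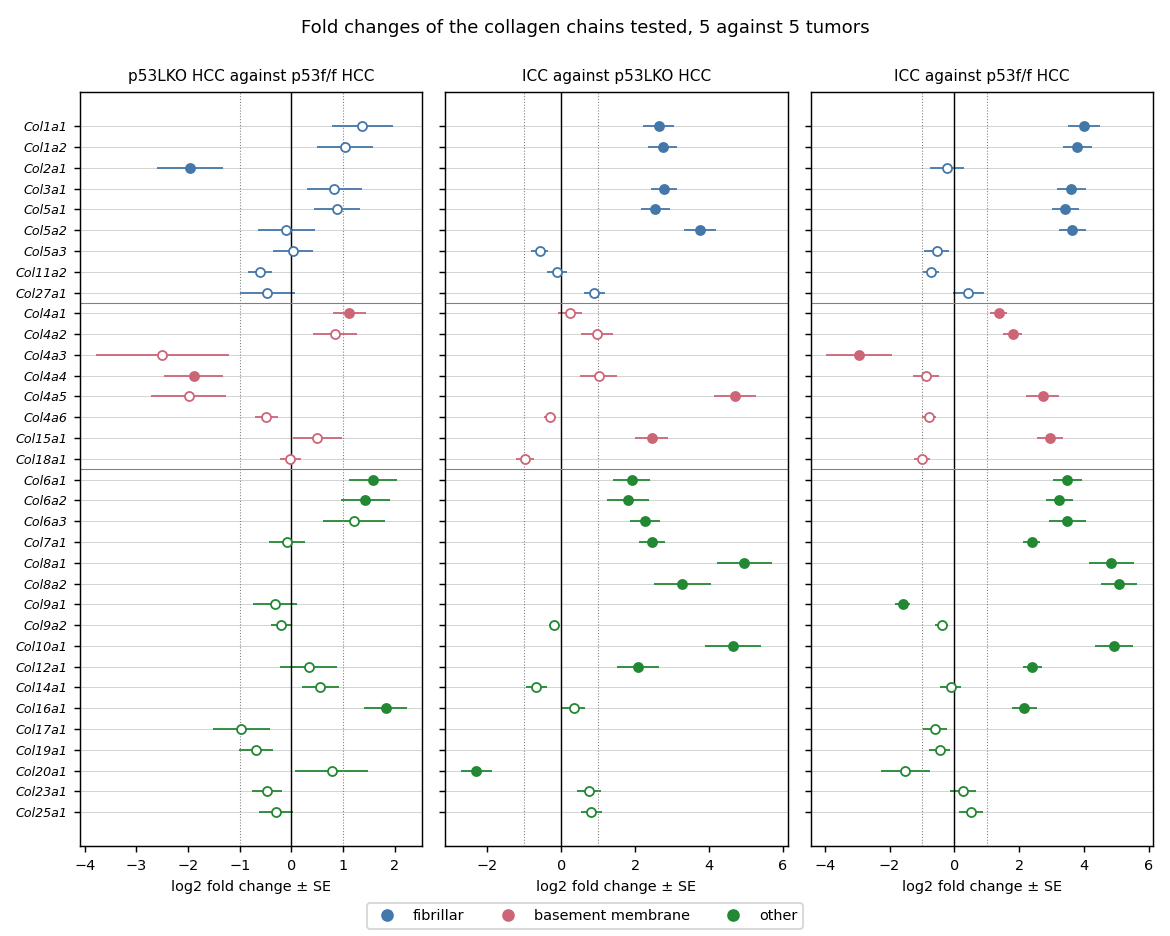
Log2 fold changes (horizontal axis, ± SE from limma) of the 34 collagen chains tested at least once, in the 3 comparisons of 5 against 5 tumors, by class. Filled points have an adjusted p under 0.05 and a fold over 2, dotted lines mark a fold of 2, and the panels differ in scale. ICC has 15 filled points to the right of 0 against p53LKO HCC and 18 against p53f/f HCC, and p53LKO HCC has 4 against p53f/f HCC.

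Single tumors carried part of the spread. In p53LKO HCC 16 chains were above background in all 5 tumors, and 3731 T2 was the highest of the group for 10 of them and lay a median of 1.19 above the group median, while 3733 T1 was the lowest for 10. Without 3731 T2, the number of chains called higher in p53LKO HCC than in p53f/f HCC was 2 in place of 4. It was 1, with none lower, without p53f/f HCC 3681 T1 and likewise without 3717 T2. In ICC 24 chains were above background in all tumors, of which 3976 T8 was highest for 15 and 3977 T5 lowest for 13. In p53f/f HCC, also with 24 such chains, 3716 T1 was highest for 9 and 3681 T1 lowest for 11. The tumor 3681 T1 was nonetheless the highest of its group for Col4a3, Col4a4, Col4a5, Col18a1 and Col20a1.

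**Figure D5:**
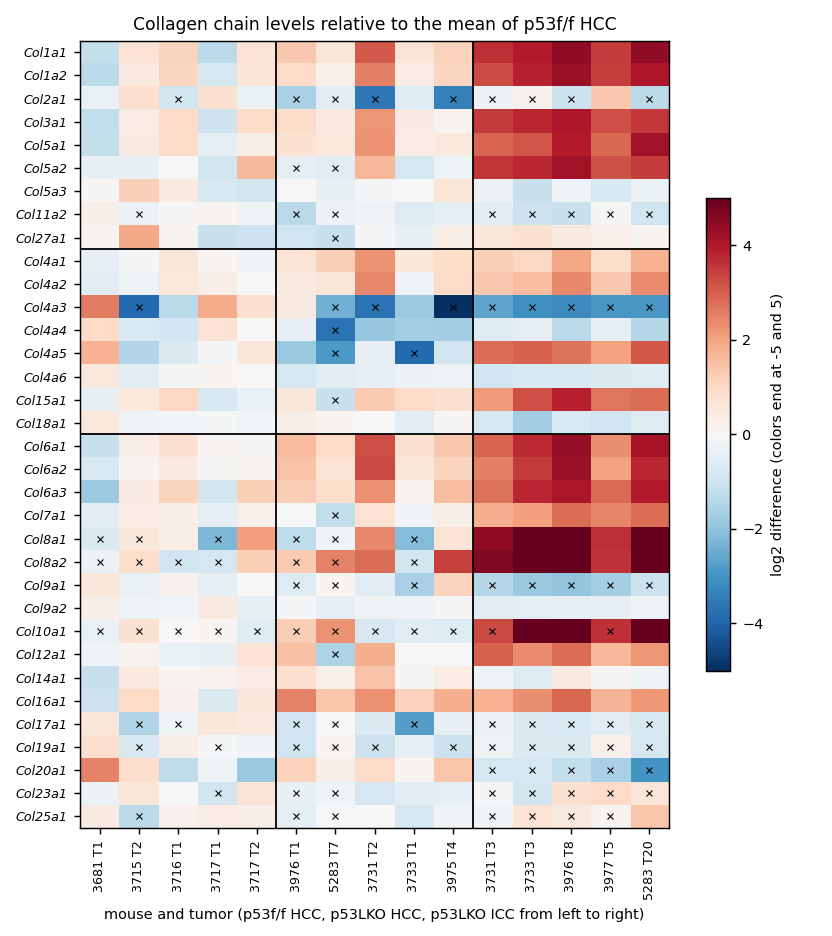
Levels of the 34 tested collagen chains (rows, by class) in each of the 15 tumors (columns, by group), as the log2 difference from the mean of the 5 p53f/f HCC, with colors ending at -5 and 5 and crosses where a probe was not well above background. Red blocks in ICC show Col1a1, Col1a2, Col3a1, Col5a1, Col5a2 and Col6a1 to Col8a2. The column of p53LKO HCC 3731 T2 is redder than its neighbours, and Col16a1 is red in all tumors of p53LKO mice.

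Several markers of cells known to make collagen were also called higher in ICC. The counts of this and the following lists stand beside 12.3% of all genes called higher and 15.5% lower in ICC against p53LKO HCC, 11.2% and 11.9% in ICC against p53f/f HCC, and 5.41% and 8.95% in p53LKO against p53f/f HCC. Of 12 markers of stellate cells and fibroblasts that are no collagens, 7 were called higher in ICC than in p53LKO HCC and none lower, and 8 higher than in p53f/f HCC. They included Fbln2, encoding fibulin 2 (log2 3.53 over p53LKO HCC), Lum (2.37), Dcn (2.30), Thy1 (1.91) and Pdgfrb (1.25), and Acta2, Des, Lrat and Reln passed in neither comparison. The lowest log2 fold change among the 12 was -1.22 against p53LKO HCC and -1.25 against p53f/f HCC, and neither was called. The mean level of the 12 was -0.30 to 1.03 in p53f/f HCC, 0.55 to 2.08 in p53LKO HCC and 2.04 to 2.96 in ICC. The p53LKO HCC 3731 T2, which led that group in 10 collagen chains, had its highest mean of 2.08. Between the HCC groups 2 of the 12, Lum (1.69) and Pdgfra (1.13), were called higher and none lower, and without 3731 T2 none was higher and 1 lower. The count of 2 became 6 with spike-in scaling and 0 with the 75th percentile over probes above background and in the upper row alone. Of 16850 genes 6133 were higher with spike-in scaling, 430 with that percentile and 791 in the upper row alone. The part of cell composition in the collagen values was not tested.

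Other cell types also differed between the groups. Of 8 biliary markers Epcam, Krt19, Spp1 and Krt7 were called higher in ICC against both HCC groups, and the mean level of the 8 was -0.15 to 0.15 in ICC and at most -0.62 in any HCC. Of the 8, 7 were tested, and Epcam, above background in 5 ICC, 0 p53LKO HCC and 1 p53f/f HCC, and Krt7, in 4, 1 and 2, were tested only through ICC. Of 11 hepatocyte markers 6 were lower in ICC than in p53LKO HCC and 7 lower than in p53f/f HCC, with means of 4.08 to 6.47 in ICC and 6.43 to 7.72 in HCC. The 6 became 4 with quantile normalization, 2 with the row as a block and 1 in the lower row alone. Between the HCC groups 1 of 11 hepatocyte markers was lower and no biliary marker was called. Endothelial markers numbered 6, of which Vwf was higher in ICC than in p53LKO HCC, Stab2 was lower in p53LKO HCC and in ICC than in p53f/f HCC, and Lyve1 was lower in ICC than in p53f/f HCC. With spike-in scaling no endothelial marker was lower in either comparison with p53f/f HCC, 4 hepatocyte markers in place of 7 were lower in ICC, and none was lower in p53LKO HCC. Of all genes 521 of 16796 were then lower in ICC and 583 of 16850 in p53LKO HCC. Of 6 macrophage markers 3 were higher in ICC than in p53f/f HCC and none against p53LKO HCC. In p53LKO against p53f/f HCC 1 of the 6 was higher, or 4 with spike-in scaling, where 6133 of 16850 genes were. Of 7 T and B cell markers 3 were higher and 1 lower in ICC against p53LKO HCC. With the row as a block 1 of the 7 was higher and 1 lower, in the lower row alone 0 and 1, and against p53f/f HCC 1 and 1. No endothelial marker was called in ICC against p53LKO HCC with the row as a block or in the lower row alone.

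Of the enzymes and chaperones that make collagen mature, 11 of 27 tested were called higher and none lower in p53LKO against p53f/f HCC, beside 5.41% and 8.95% of all genes. The median log2 fold change was 0.61, and 0.10 over all genes. They comprised the prolyl hydroxylase subunits P4ha1 (1.04, adjusted p = 0.00921 from limma) and P4ha2 (2.42, adjusted p = 0.00795), the chaperone Serpinh1 (1.27), the lysyl oxidases Loxl1 (2.31) and Loxl2 (2.07), which cross-link fibers, the sugar transferases Colgalt1 (1.39) and Colgalt2, above background in 3 p53LKO and 1 p53f/f HCC and so tested only through the former, the procollagen peptidases Adamts2 (1.24) and Adamts14 (1.08), the peptidase enhancer Pcolce (2.66) and P3h3 (1.20). Within the upper row 9 were called higher, and without 3731 T2 5 were. The count ranged from 5 to 16 over the scalings of the arrays, and none was lower under any of them. The 16 came with spike-in scaling, where 6133 of 16850 genes were called higher. The 5 came with the 75th percentile over probes above background, where 430 were.

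In ICC the list had calls in both directions. Against p53LKO HCC 9 of 28 were called higher and 6 lower, with a median of 0.02. Higher were Lox, above background in all ICC and 1 p53LKO HCC and so tested only through ICC, Pcolce2 (4.02), the lysyl hydroxylase Plod2 (3.02), P3h4, Loxl3, Adamts2, Loxl1, P3h2 and Serpinh1 (1.44). Lower were Pcolce (-1.90), Adamts14, Mia3, P4hb (-1.28), Loxl4 and Colgalt2, which was above background in 3 p53LKO HCC and no ICC and so tested only through HCC. P4hb, the disulfide isomerase that is a subunit of prolyl hydroxylase, and Mia3, which loads collagen into transport carriers, were also lower than in p53f/f HCC, where 16 of 27 genes of the list were higher and 3 lower. With spike-in scaling 16 were higher and none lower in that comparison, beside 4759 higher and 521 lower of 16796 genes. Against p53LKO HCC 3 were lower with quantile normalization, with the 75th percentile over probes above background, with the row as a block and in the lower row alone, where 9 to 12 were higher and the medians were 0.30 to 0.42. Of 30 genes of the list, Adamts3 and Tll2 were above background in no tumor.

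Receptors for collagen and proteins that bind it were tested as lists of 10 each. Among receptors, 4 of 9 tested were called higher in ICC than in p53LKO HCC, beside 12.3% of all genes, namely the integrin chains Itga2, above background in all ICC and 1 p53LKO HCC and so tested only through ICC, and Itga11 (2.21), the inhibitory receptor Lair1 (1.25) and Mrc2 (1.45), which takes up collagen for degradation. The kinase receptor Ddr1 (1.19) and Mrc2, above background in 5 p53LKO and 2 p53f/f HCC, were called higher in p53LKO HCC than in p53f/f HCC. In ICC 2 of 9 receptors were called higher than in p53f/f HCC. With spike-in scaling 8 of 9 were, beside 4759 of 16796 genes. No receptor was called lower in any of the 3 comparisons. Of the collagen-associated matrix genes 5 of 10 were higher in ICC than in p53LKO HCC, among them Tnc, the gene of tenascin C, which was above background in all ICC and 1 p53LKO HCC, and 6 of 10 higher than in p53f/f HCC, where 11.2% of all genes were. Between the HCC groups Lum and Sparc were the 2 of 9 called, both higher, and without 3731 T2 none was.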

How the data were processed

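RNA of whole tumors was labelled with Cy3 and hybridised to one-colour 8x60K mouse arrays, and the scanner files hold probe intensities that, per the file headers, Agilent Feature Extraction 10.7.3.1 background-subtracted before the authors deposited them. The authors also deposited log2 values, normalized to the 75th percentile in GeneSpring and centred per probe. These were matched to the scanner files and used as an alternative for the HCC groups only, because HCC and ICC columns were centred on different arrays.

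Here each processed signal was divided by the 75th percentile of its array and taken to log2, with 55681 probes after averaging spots and the brightest probe per gene for counts of genes. limma 3.58.1 (R 4.3.3) was fitted per comparison to its 10 tumors, on probes above background in 3 or more tumors of either group, with Benjamini-Hochberg adjustment over all tested probes. All adjusted p in the text are limma's unless a test is named. Thresholds were an adjusted p under 0.05 and a fold over 2. Where no array of a group was above background, a fold is given as a bound, against the higher of the dim probe itself and the lowest signal well above background on each array, and none where that bound was under 1. Single genes were also compared by exact permutation over 252 splits of 5 and 5 tumors, 2-sided. Figures were drawn with matplotlib 3.10.9 (Python 3.11.15).

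The members and lists were chosen with earlier results of these data known. Named were Col1a1, Col1a2, Col3a1, Col5a1, Col5a2, Col4a1, Col4a2, Col18a1, Col6a1, Col6a2 and Col6a3, and per comparison up to 8 chains that rose and 8 that fell past both thresholds. Other chains were given by counts, ranges or folds, and Col5a3, Col14a1, Col20a1, Col22a1, Col6a5 and second probes were described after their values were seen. On simulated data for ICC against p53LKO HCC, with 32670 probes, 170 of 200 changed probes were recovered and 9 unchanged ones called. Mice 3731, 3733, 3976 and 5283 gave both tumor types, and this pairing rests on the shared animal. The deviations of their tumors from the group means correlated at -0.16, 0.03, 0.02 and -0.05. Alternatives were other scalings, background corrections, filters, tests, slide, row and mouse as blocks, and leaving out each tumor. The number of arrays limits the precision, and 15 arrays were used. The values of 1 marker gene are not reported here.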

Additional observations from a re-analysis of the deposited data

Results flagged for a closer look

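In 24 genes by 3 groups, 72 groups of 5 tumors were examined for a tumor that stood far from the rest, and chance marks about 1 in 20 such groups. Of these, 3 held one, measured by the gap to the nearest other tumor as a share of the group's range, where the limit is 0.71. Col18a1 in p53f/f HCC was highest in 3681 T1, with a share of 0.906. In p53LKO HCC 3731 T2 was highest for Col5a1, with a share of 0.805, and for Col5a2, with a share of 0.759, where 3 of the 5 tumors were above background.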

How the results depend on the processing

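Counts of collagen chains called depended most on the processing between p53LKO and p53f/f HCC, where the main counts were 4 higher and 2 lower. Higher counts were 2 with quantile normalization, without a filter and with the Mann-Whitney test, 1 with the 75th percentile over probes above background on all 15 arrays, with the slide as a block and with the methods' t-test (Welch), and 12 with spike-in scaling. The 12 stood beside 6133 of 16850 genes called higher with that scaling. Lower counts were 1 with normexp and with slide or row as a block, and 0 with quantile, spike-in scaling, no filter, the every-array filter, the 2 tumors of 3717 averaged, the methods' t-test and the Mann-Whitney test. Leaving out single tumors gave 1 to 4 higher and 0 to 3 lower. For ICC against p53LKO HCC, 15 higher and 1 lower became 7 and 0 with the every-array filter, and 2 were lower with normexp, the row as a block, the lower row alone and no fold limit. Leaving out single tumors gave 14 to 16 higher and 1 to 2 lower. For ICC against p53f/f HCC the lower count of 2 was 1 with normexp, the 75th percentile over probes above background, the slide as a block, the methods' t-test and the Mann-Whitney test, 0 with spike-in scaling and the every-array filter, and 5 with no fold limit. Leaving out single tumors gave 18 higher throughout and 1 to 3 lower. The every-array filter tests fewer genes, and otherwise the cause was not tested.

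With mouse as a random replicate block, ICC against p53LKO HCC had 15 higher and 1 lower, and so it had with the 4 fixed pairs, which lost Col6a2 (adjusted p = 0.0741 from limma) and gained Col27a1. For the comparisons with p53f/f HCC this block was not run, because only mouse 3717 gave more than 1 of their samples.

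Of 14 chains recomputed between the HCC groups, 2 uncalled ones changed sign, and the other chains were not recomputed singly. Col18a1, at -0.02, was 0.03 with normexp, 0.71 with spike-in scaling and 0.09 with the slide as a block, and ranged from -0.10 to 0.11 without single tumors. Col5a2, at -0.10, was 0.46 with quantile normalization, 0.63 with spike-in scaling and 0.18 with the row as a block or the upper row alone, and ranged from -0.54 to 0.30 without single tumors. Over the single chains recomputed, 1202 values kept direction and call, 83 lost the call, 27 gained it and 12 changed sign. The median of all genes moved from -0.16 to 0.59 with spike-in scaling for ICC against p53f/f HCC, where the share of higher genes among those called rose from 48.6 to 90.1%, and from -0.19 to 0.18 with the 75th percentile over probes above background for ICC against p53LKO HCC, where it rose from 44.3 to 68.3%. Signal over background limits Col8a1, Col8a2, Col10a1, Col2a1, Col9a1 and Col20a1, which had groups at or below it.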
